A study of Mus musculus with 16 samples.

Results

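Tubulin gene expression was measured in dopaminergic neurons of the substantia nigra pars compacta (SNc) of mice with and without a conditional deletion of the mitochondrial calcium uniporter (MCU), the channel through which Ca2+ enters the mitochondrial matrix. The genes described are 4 alpha-tubulin genes (Tuba1a, Tuba1b, Tuba1c and Tuba4a) and 5 beta-tubulin genes (Tubb2a, Tubb2b, Tubb3, Tubb4a and Tubb5), which are 9 of the 25006 genes in the count tables. They were picked by name, with the result for Tuba1c in this comparison of genotypes already known, so their differences between genotypes are given below as a description without a test. The questions asked were what share each of these genes had of their summed alpha- or beta-tubulin counts in each mouse, and how the counts of Tuba1c stand to those of the paralogs that it resembles almost base for base.

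Alpha- and beta-tubulin form the dimers from which microtubules are built, and each is encoded by several genes, called isotypes, that differ mainly in the tail at the end of the protein. In neurons, microtubules shape the axon and dendrites and are the tracks on which motor proteins carry mitochondria and vesicles. When dimers are in excess, cells degrade tubulin mRNA while it is being translated, a form of control called autoregulation.

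mRNA came from RiboTag pulldowns, for which an injected viral vector makes Cre-positive cells express a ribosomal protein with a tag, and ribosomes are then precipitated by that tag with the mRNA they hold. The control group was 8 DAT-Cre+/- mice and the MCU-KO group 8 DAT-Cre+/- MCU fl/fl mice, at postnatal day 45 and 30 days after injection of the vector, with a library for each mouse. Both groups thus carried Cre under the dopamine transporter promoter and received the vector, and only the MCU-KO mice carried the floxed Mcu alleles. The controls came from a cross of DAT-Cre+/+ with C57/BL6 mice, so they were not littermates of the MCU-KO mice, and genotype and breeding line cannot be told apart.

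Library totals ranged from 18999107 to 22016362 counts in control mice and from 14129527 to 20582204 in MCU-KO mice, where mouse 8 was the shallowest library. The summed counts scaled to the library size (CPM) of 13 dopaminergic markers, such as Th and Slc6a3, were 14065 to 17705 in control mice and 12394 to 19934 in MCU-KO mice, and those of 10 oligodendrocyte markers were 2991 to 5941 and 3570 to 7000. Astrocyte markers (6 genes) summed to 326 to 665 CPM and 452 to 908 CPM, and microglial markers (7 genes) to 48.7 to 155 and 49.6 to 269. Markers of GABA or glutamate neurons (5 genes) summed to 150.1 to 287 CPM in control mice and 112 to 392 in MCU-KO mice, and endothelial markers (3 genes) to 7.21 to 35.1 and 4.63 to 21.2. No marker was at 0 in every mouse. None of the 44 had an adjusted p under 0.05 between genotypes with edgeR, DESeq2 or limma-voom, and 2 (4.55%), 2 (4.55%) and 6 (13.6%) had an unadjusted p under 0.05, where 4.41%, 5.37% and 7.29% of all genes tested with each tool did. RNA of glia was thus present in both groups, and its part in the tubulin counts was not tested. In such pooled tissue, fewer cells of a type and less RNA per cell cannot be told apart. Mcu itself had 120 to 828 normalized counts (counts divided by the size factor of the library) in control mice and 5.82 to 410 in MCU-KO mice (log2 fold change -1.19, 95% interval -2.41 to 0.04), so that the groups overlapped, but the counts are per gene and do not show which exons the reads came from.

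The sequences of Tuba1a, Tuba1b and Tuba1c decide how far a sequencing read can be assigned to any of them, and so they come before the counts. On GRCm38, the build the files use under its name mm10, the 3 genes lie close together on chromosome 15 (Tuba1b at chr15:98931425-98934565 and Tuba1a at chr15:98949837-98953703, both on the minus strand, and Tuba1c at chr15:99029891-99038110 on the plus strand). In the GENCODE M21 transcripts, the coding sequences of Tuba1b and Tuba1c differed at 22 of 1350 bases (98.4% identical), those of Tuba1a and Tuba1b at 23 of 1356 (98.3%), and those of Tuba1a and Tuba1c at 33 of 1350 (97.6%). Tuba4a, on chromosome 1, was 85.3% to 85.6% identical to the other alpha-tubulins. The longest run without any difference between Tuba1b and Tuba1c was 468 bases, within 1 exon. A read that lies wholly in this run cannot be assigned to either Tuba1b or Tuba1c.

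The last 60 coding bases of 7 of the genes are shown next, because they encode the tail by which isotypes are told apart, with the stop codon in capitals. On GRCm38 they lie on the plus strand in Tuba1c chr15:99037950-99038009 and Tubb3 chr8:123421623-123421682, and on the minus strand in Tuba4a chr1:75215622-75215681, Tubb2a chr13:34074468-34074527, Tubb2b chr13:34127471-34127530, Tubb4a chr17:57080690-57080749 and Tubb5 chr17:35834982-35835041.
Tuba1c: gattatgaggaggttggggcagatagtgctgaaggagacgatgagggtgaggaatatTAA
Tuba4a: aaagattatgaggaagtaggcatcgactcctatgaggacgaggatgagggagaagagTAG
Tubb2a: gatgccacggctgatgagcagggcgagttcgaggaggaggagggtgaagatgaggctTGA
Tubb2b: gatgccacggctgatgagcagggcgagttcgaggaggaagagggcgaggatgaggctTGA
Tubb3: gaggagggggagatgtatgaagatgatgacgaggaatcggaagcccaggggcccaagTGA
Tubb4a: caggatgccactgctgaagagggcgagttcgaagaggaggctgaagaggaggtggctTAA
Tubb5: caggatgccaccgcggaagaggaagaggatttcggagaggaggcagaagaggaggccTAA

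The 3 letters before the stop codon are tat, a codon for tyrosine, in Tuba1c and gag in Tuba4a, the alpha-tubulin known for lacking an encoded tyrosine at its end. Among the beta-tubulins, Tubb2a and Tubb2b (both on chromosome 13) were 96.5% identical over their coding sequences, and every other beta-tubulin comparison lay between 82.3% and 84.8%.

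When each annotated transcript was cut into all its stretches of 50 bases, 75.5% of those in Tuba1a, 75.1% in Tuba1b and 52.7% in Tuba1c also occurred in a transcript of another gene. The share was 49.6% in Tubb2a, 36.9% in Tubb2b and 35.4% in Tuba4a, but 0.184% in Tubb4a, 0.0892% in Tubb5 and 0 in Tubb3. In Tuba4a most of it was an overlap of 1379 bases with Stk16, a kinase gene on the opposite strand. Tuba1a and Tuba1b also overlapped an annotated gene on their own strand, Gm49450, by 473 and 426 bases. Tuba1b further overlapped Gm41396 on the opposite strand by 87 bases. The shares of Tuba1a and Tuba1b thus include overlapping annotation besides paralog sequence, and how much stems from overlap alone was not tested. In Tuba1c, 92.6% of the coding bases lay in stretches shared with Tuba1b and 82.7% in stretches shared with Tuba1a, while none of the 531 bases before or the 101 bases after the coding part of its main transcript was shared with any gene. The plot of the Tuba1c transcript shows these blocks. Neither the read length nor the treatment of reads with several matches is given in the sources used here, and the deposited counts do not show from which part of a gene a read came, so how much of the Tuba1c count stems from unshared bases was not tested.

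**Figure D1:**
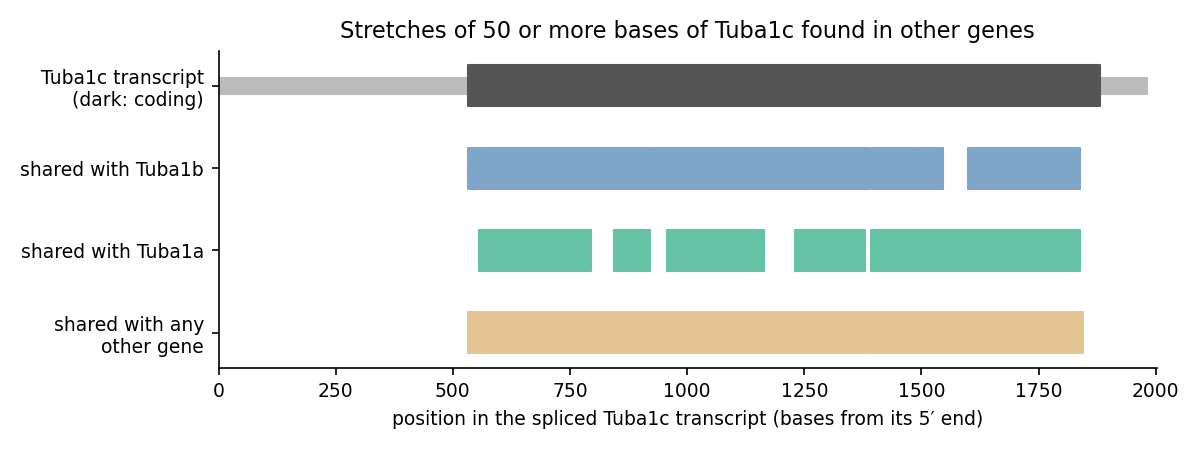
The horizontal axis is the position in bases along the spliced Tuba1c transcript, with the coding part dark in the top track, and the lower tracks mark stretches of at least 50 bases that also occur in Tuba1b, in Tuba1a or in any other gene. All shared blocks lie inside the coding part, and the 531 bases before and 101 bases after it carry none.

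In control mice, 7 of the 9 tubulin genes, all but Tubb2b and Tuba1c, each had more normalized counts than at least 94.6% of the tested genes. Together the 9 genes held 0.576% ± 0.0516 (SD, n = 8) of all counts in control mice and 0.529% ± 0.0718 (SD, n = 8) in MCU-KO mice. Tuba1a, the main alpha-tubulin of postmitotic neurons, had more than 99.5% of the tested genes. All 9 genes passed the filter on low counts, Tuba1c through its counts in MCU-KO mice. Levels of different genes were compared as normalized counts per kb of exon, which takes no account of the sequence that genes share. The order, shares and totals below therefore depend on how reads with several matches were treated. How far they do was not tested. On this scale the order in control mice was Tuba1a (14459.6 per kb), Tubb2a (12394), Tubb4a (8408), Tubb3 (7355), Tubb5 (4721), Tuba1b (2976), Tuba4a (2816), Tubb2b (442) and Tuba1c (3.30). Tuba1a was above Tubb2a, Tubb4a above Tubb3 and Tuba1b above Tuba4a in 6 of 8 control mice each. The log2 ratio within a mouse was 0.23 ± 0.19 (SD, n = 8) for Tuba1a over Tubb2a, 0.19 ± 0.18 (SD, n = 8) for Tubb4a over Tubb3 and 0.09 ± 0.19 (SD, n = 8) for Tuba1b over Tuba4a, so that only the last was smaller than the spread between mice. Each of the other neighbors kept its place in 8 of 8. Per kb of coding sequence, Tubb5 stood above Tubb3, and Tuba4a above Tuba1b. In MCU-KO mice Tuba1c, with 512 per kb, was above Tubb2b, with 446, in 7 of 8 mice.

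As a share of the total of the 4 alpha-tubulin genes described, per kb of exon, Tuba1a made up 71.3% ± 2.40 (SD, n = 8) in control mice and 70.0% ± 1.57 (SD, n = 8) in MCU-KO mice. Tuba1b, which is expressed in most cell types, made up 14.7% ± 1.14 and 13.4% ± 1.68, and Tuba4a 13.9% ± 1.87 and 13.8% ± 1.40. Each of these ranges overlapped between genotypes. The share of Tuba1c was 0.00213% to 0.0578% in control mice and 1.75% to 3.47% in MCU-KO mice, without overlap, and leaving out any mouse kept the difference of the means between 2.67 and 2.92 percentage points. With coding length in place of exon length, the share of Tuba4a in control mice was 24.9% and that of Tuba1a 61.8%, because the annotated transcripts of Tuba4a are long outside the coding part, and Tuba1c reached 3.06% ± 0.636 (SD, n = 8) in MCU-KO mice.

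Among the 5 beta-tubulins described, whose sum is the total here, Tubb2a was the largest share in both genotypes, with 37.1% ± 2.74 (SD, n = 8) in control and 37.4% ± 2.80 (SD, n = 8) in MCU-KO mice. Tubb4a, an isotype of brain that oligodendrocytes also express strongly, followed with 25.3% ± 2.46 and 23.9% ± 2.04. Tubb3, the isotype used as a marker of neurons, made up 22.1% ± 1.25 and 22.8% ± 2.19, Tubb5 14.2% ± 1.05 and 14.5% ± 1.32, and Tubb2b 1.32% ± 0.345 and 1.44% ± 0.368. All 5 beta shares overlapped between genotypes, and the means differed by at most 1.43 percentage points, in Tubb4a, which was lower in MCU-KO. This difference of the means (MCU-KO minus control) was -0.799 without control mouse 3 and -1.89 without control mouse 7, and those of Tubb2a (-0.463 without MCU-KO mouse 8) and Tubb5 (-0.0927 without MCU-KO mouse 5), above 0 over all mice, took the other sign without a single mouse. With Tubb4b and Tubb6, the other beta-tubulins tested, also in the total, Tubb4b made up 11.9% in control and 12.2% in MCU-KO mice. The control shares of Tubb2a, Tubb4a, Tubb3 and Tubb5 were then 32.4%, 22.1%, 19.4% and 12.5%. The ratio of the total of the 4 alpha genes to that of the 5 beta genes per kb was 0.612 ± 0.0631 (SD, n = 8) in control mice and 0.593 ± 0.0391 (SD, n = 8) in MCU-KO mice. This ratio too depends on the treatment of reads with several matches, as 75.5% of the 50-base stretches were shared in Tuba1a and 0 in Tubb3.

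**Figure D2:**
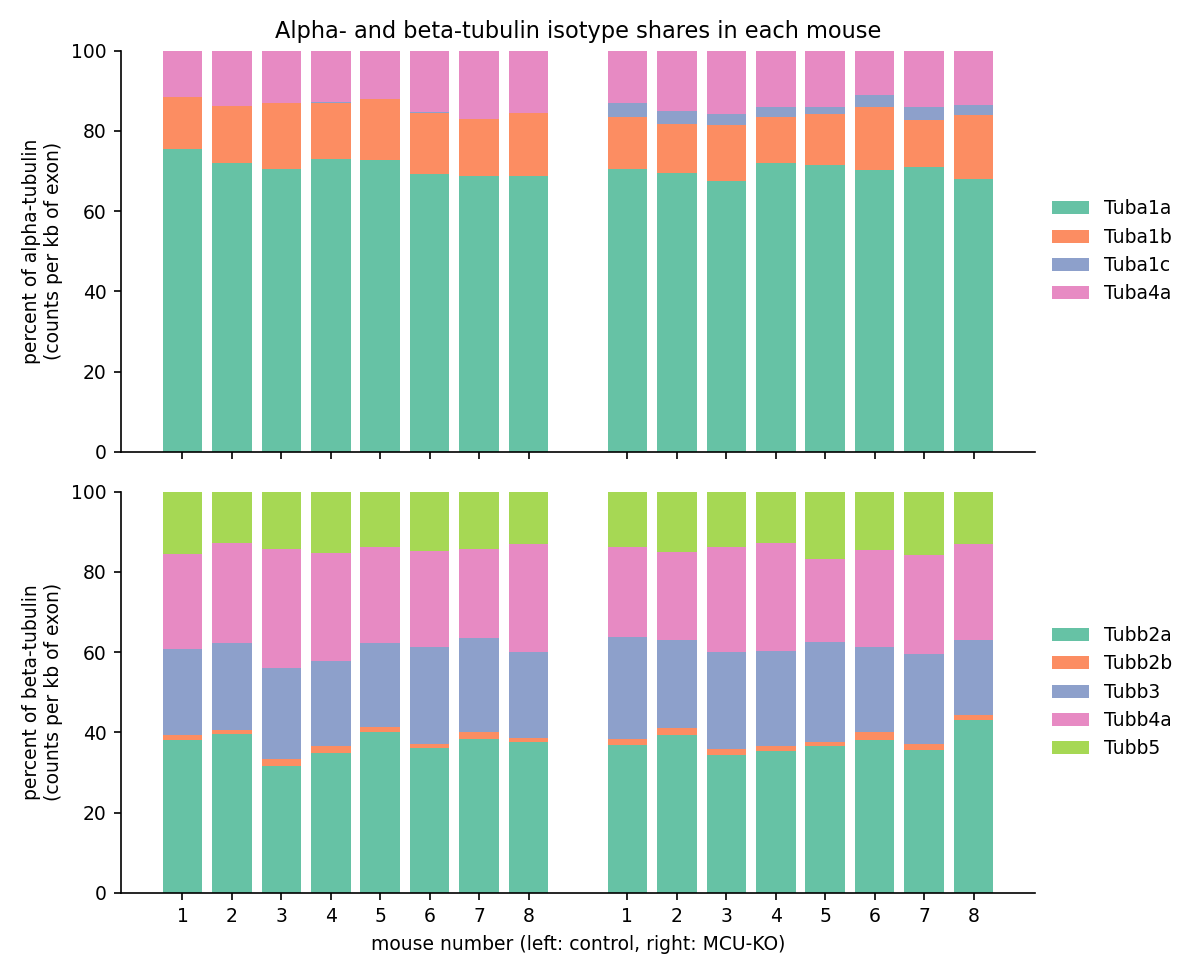
Each bar is a mouse, numbered 1 to 8 within the control group on the left and the MCU-KO group on the right. The colors give the percent of the summed normalized counts per kb of exon of the 4 alpha-tubulin (top) or 5 beta-tubulin (bottom) genes described. A band for Tuba1c, 1.75% to 3.47% of alpha-tubulin, is visible in the MCU-KO mice alone, and the beta-tubulin bands overlap between genotypes.

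The genotypes were fitted with edgeR's quasi-likelihood test over 12390 genes, of which 22 (0.178%) had a Benjamini-Hochberg adjusted p under 0.05, 11 (0.0888%) higher and 11 (0.0888%) lower in MCU-KO. Normalized counts did not overlap between genotypes in 32 genes (0.258%), and 547 genes (4.41%) had an unadjusted p under 0.05. Among the 9 tubulin genes, Tuba1c was past the adjusted threshold and did not overlap, and Tuba1a and Tuba1b also had an unadjusted p under 0.05. Since the genes were chosen with this comparison in view, these counts are a description. The log2 fold change was below 0 in 7 of the 9 genes, with a median of -0.11, where the median over all tested genes was 0.003. Of these 7, Tubb3 took the other sign in part of the alternatives, being below 0 in 22 of 24, and the other 6 were below 0 in all 24. Tubb2b, above 0 here, kept its sign in 16 of 24. DESeq2, tried as an alternative, placed 90 genes (0.557%) past its threshold, Tuba1b and Tuba1c among them.

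Tuba1c was nearly absent from control mice. Its raw count there was between 1 and 32, at or under 3 counts in 3 of 8 mice, and its normalized counts were 1.03 at the lowest, 4.01 at the median and 29.6 at the highest. In MCU-KO mice the raw count was between 693 and 1711, and the normalized counts were 672, 1108 and 1645. The lowest MCU-KO mouse was 22.7 times the highest control mouse. The fitted log2 fold change was 7.26 (standard error 0.56, 95% interval 6.09 to 8.43). Control mouse 5, with 29.6 normalized counts, carried much of the control mean, and without it the log2 fold change was 8.03 (standard error 0.46), and with limma-voom over all mice it was 8.00 (standard error 1.22). At counts this low in the controls, the fitted size of the difference rests on a few reads.

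Tuba1b, the closest paralog, was lower in most MCU-KO mice. It had 5076, 5572 and 6346 normalized counts (lowest, median and highest) in control mice and 3791, 4521 and 5089 in MCU-KO mice. Of the MCU-KO mice, 7 of 8 were below every control mouse, and the groups touched only through MCU-KO mouse 1 (5089) and control mouse 1 (5076). The control mean was 5580.4 ± 441 (SD, n = 8) and the MCU-KO mean 4524 ± 450.2 (SD, n = 8), and the fitted log2 fold change was -0.30 (standard error 0.09, 95% interval -0.48 to -0.12).

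In normalized counts, the mean of Tuba1c was higher in MCU-KO by 1164, and the corresponding difference for Tuba1b was -1056. For the other alpha-tubulins it was -3155 in Tuba1a and -1117 in Tuba4a, so that a lower mean was not particular to Tuba1b. If reads common to Tuba1b and Tuba1c alone were counted, a sum of these 2 genes does not depend on how such reads were divided. Whether they were counted is not given, and 82.7% of the Tuba1c coding bases also lay in stretches shared with Tuba1a, which is outside this sum. The sum of Tuba1b and Tuba1c, added after the counts had been seen, was 5588 ± 447 (SD, n = 8) in control mice and 5696 ± 705 (SD, n = 8) in MCU-KO mice. Its log2 fold change was 0.03 (standard error 0.09, 95% interval -0.16 to 0.22), and the groups overlapped, with 5083 to 6375 in control and 4692 to 6734 in MCU-KO mice. Tuba1c was 0.129% ± 0.149 (SD, n = 8) of the sum in control mice and 20.3% ± 4.09 (SD, n = 8) in MCU-KO mice, where it ranged from 14.2% to 25.4%. With Tuba1a included, the sum was 31659 ± 2900 (SD, n = 8) in control and 28611 ± 3143 (SD, n = 8) in MCU-KO mice, a log2 fold change of -0.15 (standard error 0.08, 95% interval -0.31 to 0.01). Whether reads of 1 gene were counted on another was not tested.

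**Figure D3:**
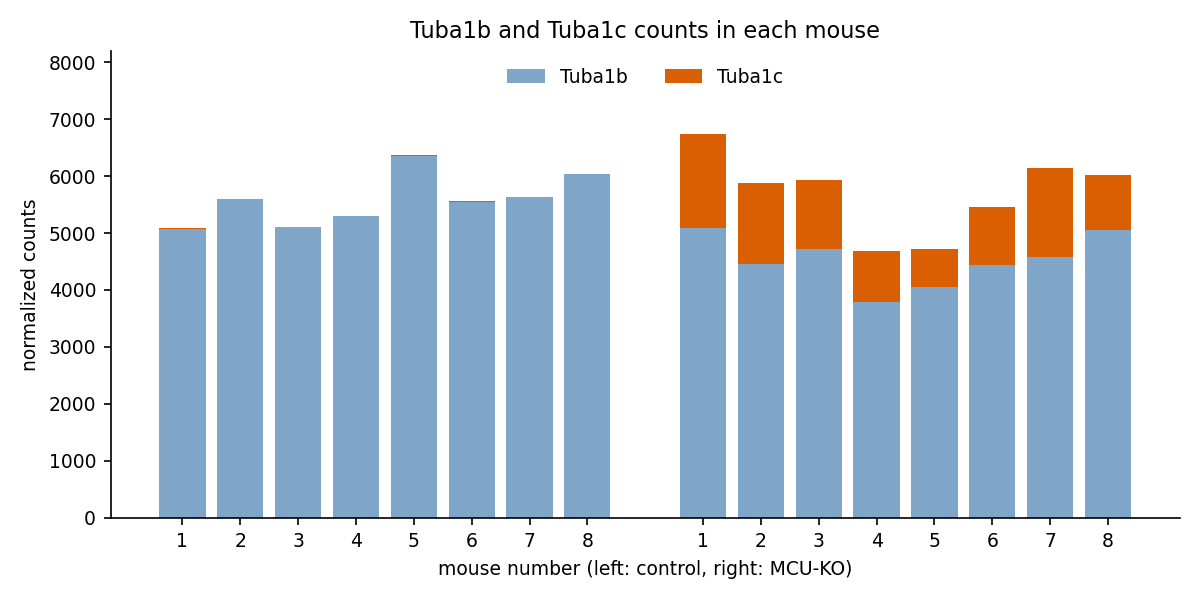
Each bar is a mouse, numbered 1 to 8 within the control group on the left and the MCU-KO group on the right, and its height is the sum of the normalized counts of Tuba1b (blue) and Tuba1c (orange). Tuba1c fills 14.2% to 25.4% of the bar in MCU-KO mice, while the heights, 5083 to 6375 in control and 4692 to 6734 in MCU-KO mice, overlap.

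The other alpha-tubulins overlapped between genotypes. Tuba1a had 20856, 26204 and 29352 normalized counts (lowest, median and highest) in control mice and 19005, 22231 and 26768 in MCU-KO mice, and its log2 fold change was -0.19 (standard error 0.08, 95% interval -0.36 to -0.01). Of the MCU-KO mice, 2 were below every control mouse, and 3 control mice were above every MCU-KO mouse. Tuba4a had 7960, 10304 and 13290 in control mice and 6113, 9491 and 10865 in MCU-KO mice, and its log2 fold change was -0.16 (standard error 0.12, 95% interval -0.41 to 0.08). Stk16, which overlaps it on the other strand, had 2209 ± 589 (SD, n = 8) normalized counts in control mice and 1939 ± 420.3 (SD, n = 8) in MCU-KO mice, and whether the counting used strand is not given in the sources used here.

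None of the 5 beta-tubulins separated the genotypes. Tubb2a had 15001, 20222.0 and 23428 normalized counts (lowest, median and highest) in control mice and 14698, 18259 and 21305 in MCU-KO mice, a log2 fold change of -0.11 (95% interval -0.32 to 0.10). Tubb4a had 15278, 19116 and 22904 in control mice and 12646, 16958 and 20479 in MCU-KO mice, with a log2 fold change of -0.19 (95% interval -0.41 to 0.04). In Tubb4a, 3 MCU-KO mice were below every control mouse and 1 control mouse was above every MCU-KO mouse.

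Tubb3 had 11518, 13506 and 16767 in control mice and 9021, 13658 and 16569 in MCU-KO mice, with a log2 fold change of -0.05 (95% interval -0.30 to 0.19). Tubb5, a beta-tubulin of most cell types, had 14059, 15652 and 18036 in control mice and 11221, 15318 and 19663 in MCU-KO mice, with a log2 fold change of -0.08 (95% interval -0.29 to 0.13). The spread was wider among MCU-KO mice in both, with an SD of 2773 against 1644 in Tubb3 and 2818 against 1307 in Tubb5; this difference in spread was not tested. Tubb2b, the least abundant of the beta-tubulins described, had 608, 959 and 1499 in control mice and 624, 1104 and 1394 in MCU-KO mice, with a log2 fold change of 0.01 (95% interval -0.45 to 0.48).

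**Figure D4:**
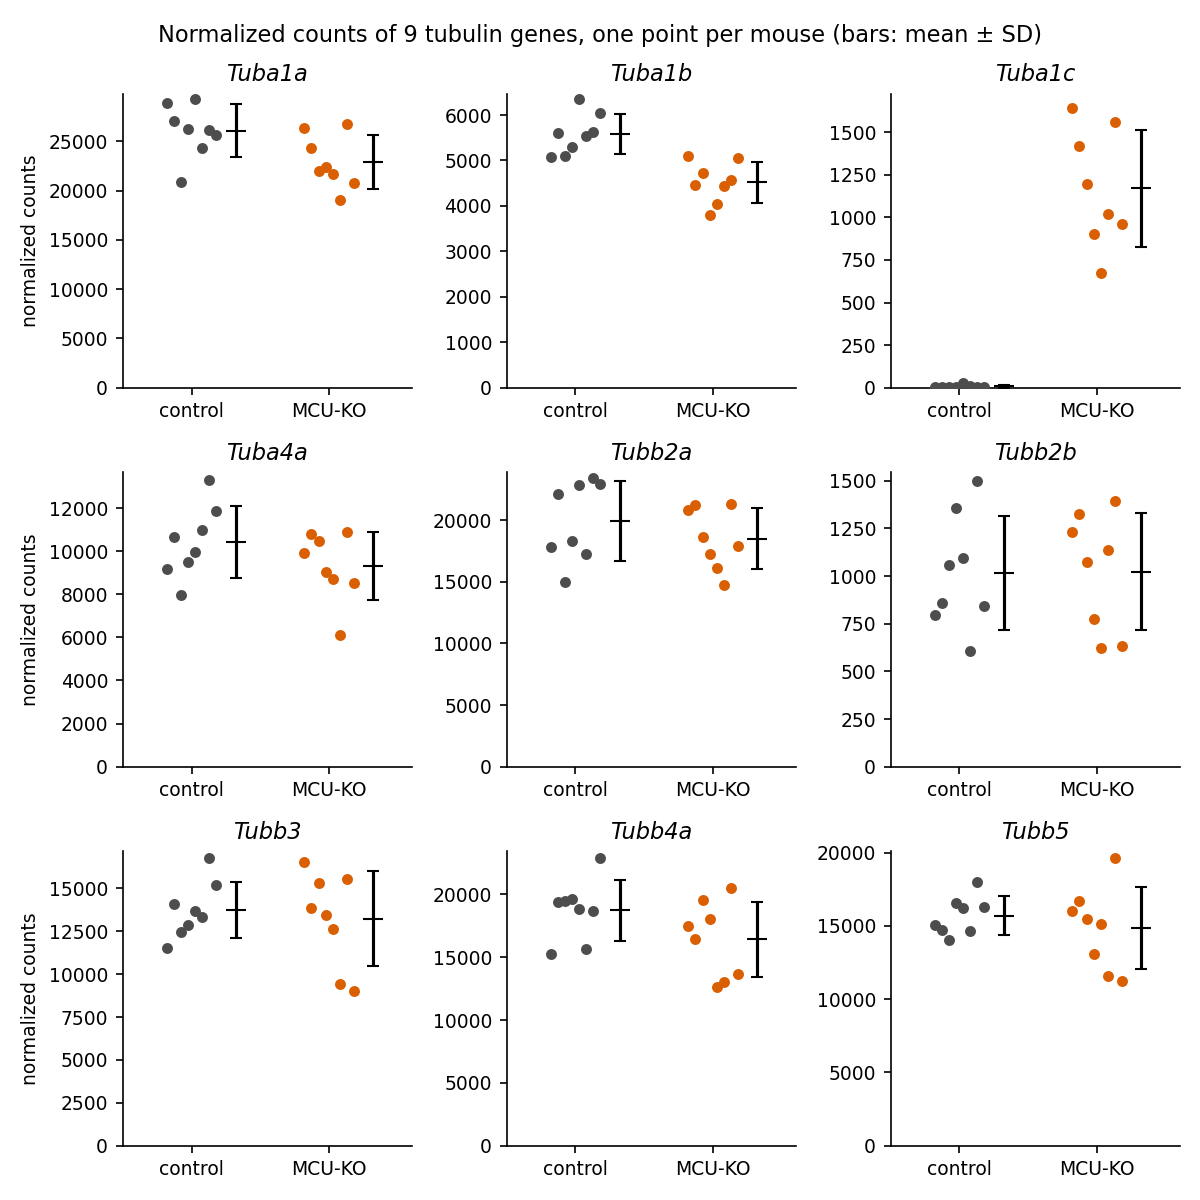
Each panel is a tubulin gene, with normalized counts from 0 on the vertical axis and a point for each of the 8 control (gray) and 8 MCU-KO (orange) mice, beside the mean ± SD. The Tuba1c points lie at 1.03 to 29.6 in control and 672 to 1645 in MCU-KO mice, and in each of the other panels the groups overlap.

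The rest of the tubulin and microtubule machinery was read from 8 lists of 156 genes, of which 137 were tested. None had an adjusted p under 0.05 in edgeR, where 0.178% of all tested genes did, and the same 0 was found with DESeq2 (0.557% of all genes) and with limma-voom (0.234%). At an unadjusted p under 0.05 there were 10 of 137 (7.30%) with edgeR, 13 of 151 (8.61%) with DESeq2 and 11 of 137 (8.03%) with limma-voom, where 4.41%, 5.37% and 7.29% of all genes tested with each tool did. The median log2 fold change of the 137 genes was 0.001, with 69 above and 68 below 0, and for 100 of them the 95% interval lay within a 2-fold change in either direction. For the others the data do not limit the change to less than 2-fold. In simulated data, edgeR detected 41.8% of 2-fold differences, so 0 genes past the threshold does not show that none differed.

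Of the other tubulins, 7 of 11 were tested and none passed the threshold. Tubb4b, a beta-tubulin of most cell types, was the most abundant, with 9507 ± 1484 (SD, n = 8) normalized counts in control and 8907 ± 1349 (SD, n = 8) in MCU-KO mice and a log2 fold change of -0.09 (95% interval -0.32 to 0.13). The gamma-tubulins Tubg1 and Tubg2, from which new microtubules are nucleated, had log2 fold changes of 0.03 (-0.35 to 0.41) and 0.08 (-0.21 to 0.36). Tuba8, Tubb6, Tubd1 and Tube1 were low and varied widely between mice, with intervals that reached beyond 1 on the log2 scale. Tuba3a, Tuba3b, Tubal3 and Tubb1 had too few counts to be tested.

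Tubulin needs chaperones to fold and enzymes to modify it. Among 21 folding genes none passed, and the smallest p was that of Cct5, a subunit of the CCT chaperonin, with 7945 ± 930.3 (SD, n = 8) in control and 6728 ± 587 (SD, n = 8) in MCU-KO mice, a log2 fold change of -0.24 (95% interval -0.42 to -0.06) and an adjusted p of 0.892 (edgeR). Cct7, of the same complex, and Tbcb, a tubulin-binding cofactor, had log2 fold changes of 0.01 and -0.16. The 3 genes of tubulin mRNA autoregulation also remained under the threshold. Ttc5, which recognizes nascent tubulin, had a log2 fold change of 0.25 (95% interval -0.21 to 0.70), and Scaper and Cnot11, which act with it, -0.14 and 0.46. Of 16 tested modifying enzymes, Agbl4, a carboxypeptidase that trims glutamates from tubulin, had 409 ± 189 (SD, n = 8) in control and 197 ± 111 (SD, n = 8) in MCU-KO mice, a log2 fold change of -1.05 (95% interval -1.90 to -0.20) and an adjusted p of 0.974 (edgeR). The deglutamylase Agtpbp1 and the glutamylase Ttll7 had log2 fold changes of 0.37 (0.05 to 0.68) and 0.10 (-0.19 to 0.38). An unadjusted p under 0.05 (edgeR) was found in 1 of 21 folding genes (4.76%), 0 of 3 autoregulation genes and 2 of 16 modifying enzymes (12.5%). Among all tested genes the share was 4.41%.

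Microtubule nucleation (16 of 18 genes tested), binding and stability (25 of 25), destabilization and severing (12 of 15) and motors (37 of 38) each held 0 genes past the threshold, with median log2 fold changes of -0.096, -0.003, -0.012 and -0.03. At an unadjusted p under 0.05 (edgeR) they held 1 (6.25%), 1 (4%), 0 and 5 (13.5%) genes, where 4.41% of all tested genes did. The smallest p in these lists belonged to Haus1, a subunit of the augmin complex (log2 fold change 1.10, adjusted p = 1.00), Dclk2, a doublecortin-like kinase (0.63, adjusted p = 0.849), Katnbl1, a katanin-like protein (1.12, adjusted p = 1.00), and Kif1a, a kinesin that carries synaptic vesicle precursors (-0.28, adjusted p = 0.845), all from edgeR. Of the most abundant genes, the microtubule-associated proteins Map1b and Mapt had log2 fold changes of -0.08 and 0.00, the stathmins Stmn3 and Stmn2, which bind free tubulin, -0.06 and -0.08, and the kinesin light chain Klc1 0.00. Mzt1 and Mzt2, small proteins of the gamma-tubulin complex, were at 0.03 and -0.28.

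**Figure D5:**
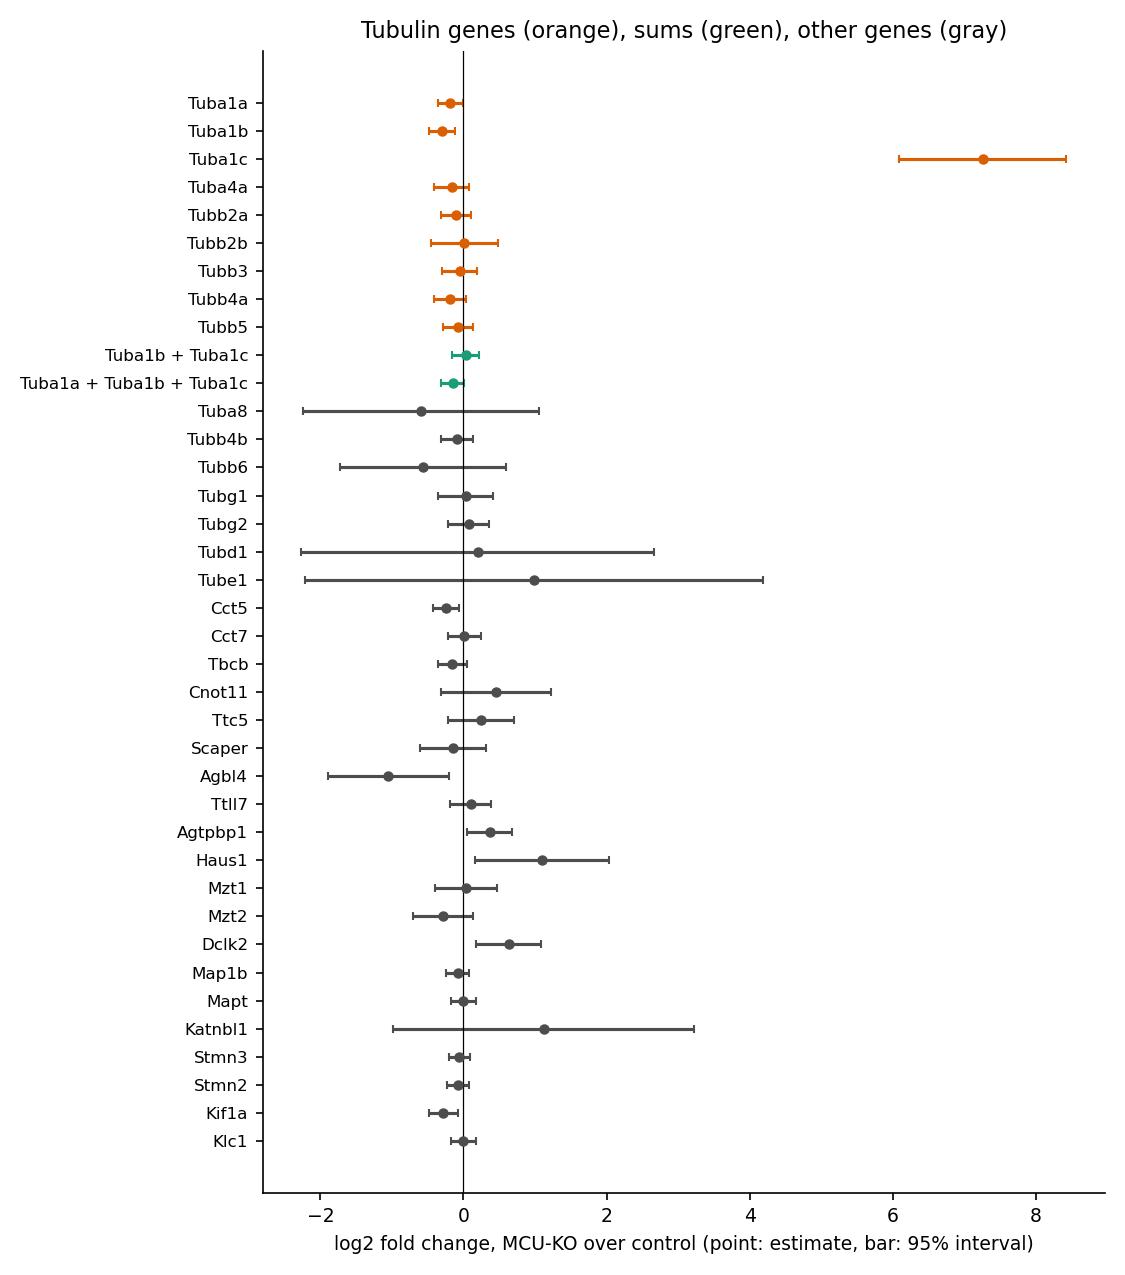
Points are log2 fold changes of MCU-KO over control and bars their 95% intervals, for the 9 tubulin genes (orange), the sums of Tuba1b with Tuba1c and of all 3 close paralogs (green) and the named genes of the 8 lists (gray). Tuba1c stands at 7.26. Its sum with Tuba1b, added after the counts had been seen, lies at 0.03 with an interval of -0.16 to 0.22. The sum of all 3 lies at -0.15 with an interval of -0.31 to 0.01.

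The region around Tuba1c and genes of like pattern were examined next. Of 38 other tested genes within 1 Mb of Tuba1c, none passed the threshold with edgeR or limma-voom, where 0.178% and 0.234% of all tested genes did. At an unadjusted p under 0.05 there were 5 (13.2%) with edgeR, 5 (13.2%) with DESeq2 and 6 (15.8%) with limma-voom. Over all genes tested with each tool, these shares were lower, at 4.41%, 5.37% and 7.29%. The median edgeR log2 fold change of the 38 genes was 0.024. With edgeR the smallest p was that of Smarcd1, a subunit of the SWI/SNF chromatin remodeling complex, with 1289 ± 362 (SD, n = 8) normalized counts in control and 766 ± 153 (SD, n = 8) in MCU-KO mice and an adjusted p of 0.335, and this gene was the single one of the 38 past the threshold with DESeq2 (adjusted p = 0.0465). The pattern over the 16 mice most like that of Tuba1c, by the mean absolute difference of centered log2 CPM, was that of Gstcd (1.46), Tagap (1.62), Eno1b (1.72), Nhlrc2 (1.87) and H2-Q5 (1.90), where the median of all tested genes was 3.68. None of these lies on chromosome 15. Eno1b, an enolase gene, had 73.1 ± 28.4 (SD, n = 8) in control and 1199 ± 201.7 (SD, n = 8) in MCU-KO mice. Gstcd, with 9.80 ± 14.7 and 186 ± 121 (SD, n = 8 each), did not overlap between genotypes either, but had a count of 0 in 3 control mice. Tagap had a count of 0 in 4 control mice, and Nhlrc2 and H2-Q5 in 5 each. Of these genes Eno1b alone was past the adjusted threshold with edgeR, and Gstcd had an adjusted p of 0.339 (edgeR). Tagap, Nhlrc2 and H2-Q5 were not past it and overlapped between genotypes.

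Besides the members themselves, 4 genes with counts shared stretches of 50 bases with a tubulin gene. They included Slc7a11, the cystine transporter subunit that supplies cysteine for glutathione, which was looked at after the values had been seen. The last exon of its transcript with 12 exons (chr3:50364938-50372366 on the minus strand, 7429 bases) held, on the opposite strand, a tubulin-like sequence that aligned to Tuba1c over 855 bases at 94.4% identity, to Tuba1a over 856 bases at 94.5% and to Tuba1b over 958 bases at 93.9%. These identities leave out gaps, and the 855 bases aligned to Tuba1c spanned bases 532 to 1640 of its transcript. The stretches of 50 bases that were identical lay within chr3:50369988-50370743. They made up 2.01% of the stretches in Tuba1c, 5.82% in Tuba1a and 4.86% in Tuba1b. Slc7a11 had 2.77 to 116 normalized counts in control mice and 523 to 962 in MCU-KO mice, without overlap.

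Within the 8 MCU-KO mice, Tuba1c and Slc7a11 varied together, with Pearson's r = 0.895 (two-sided exact permutation test, p = 0.00412, adjusted over 3 relations 0.0124) and Spearman's rho = 0.905 (exact permutation p = 0.00456, adjusted 0.0137). Without the 2 mice farthest from the median of Tuba1c, r was 0.778 (exact permutation p = 0.0694, n = 6), so that the relation rests in part on those mice. Tuba1c and Slc7a11 were both picked with their values known. The adjustment over 3 relations does not cover that choice, so the p-values here are descriptive. The ratio of Slc7a11 to Tuba1c was 0.653 ± 0.101 (SD, n = 8). Tuba1c also varied with Tuba1a (r = 0.807, exact permutation p = 0.0174, adjusted 0.0261, n = 8; rho = 0.690, exact permutation p = 0.0694, adjusted 0.0831), but r fell to 0.480 (exact permutation p = 0.307) without the same 2 mice. With Tuba1b r was 0.569 (exact permutation p = 0.145, adjusted 0.145, n = 8; rho = 0.667, exact permutation p = 0.0831, adjusted 0.0831), and 0.409 (exact permutation p = 0.417) without them. Whether the tubulin-like sequence in the Slc7a11 exon took part in the counts of either gene was not tested.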

How the data were processed

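mRNA bound to tagged ribosomes was sequenced in 8 control and 8 MCU-KO mice, grouped by their labels. According to the paper and the submitters' processing notes, the authors trimmed reads (cutadapt, Trim Galore), mapped these with STAR (mm10), and deposited the raw counts that HTSeq gave for each gene; tool versions, strandedness, annotation release and the treatment of multiply matching reads are not given in the sources used here. The 9 genes and the lists were chosen with earlier results of these data known.

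Counts were fitted with edgeR 4.0.16 in R 4.3.3 (filterByExpr, TMM, glmQLFit, glmQLFTest). The p-values of 12390 genes were adjusted by Benjamini-Hochberg and read at 0.05. In simulated data, the detection rate was 10.4% for 1.5-fold differences (67 genes). It was 41.8% for 2-fold differences (67 genes) and 62.1% for 4-fold differences (66 genes). A gene not past the threshold may thus still differ between genotypes. Standard errors and 95% intervals come from the coefficient and its F statistic. Normalized counts are counts divided by size factors of DESeq2 1.42.0. A total of 3 counts was taken as the detection floor, 0.136 to 0.212 CPM. This floor covers counting error only. Labels name separate mice, so p-values measure the spread between mice. Lengths, coordinates and sequences are from GENCODE M21 on GRCm38 (24942 of 25006 identifiers had a symbol), with the longest complete coding transcript of each gene. Some sequences are not reported here. Likeness used a prior count of 2. Same-numbered mice of the groups did not deviate together (correlations -0.0614 to 0.0310), so the numbers were taken not to pair them. No 2 libraries were identical.

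Named genes were the 9 members, every other tested tubulin, in each list the gene with the smallest p and the 2 most abundant, the 5 genes most like Tuba1c, the neighboring gene with the smallest p, and Mcu. Slc7a11 and Stk16 were added after the values had been seen. Alternatives were other tests, normalizations, filters, a replicate block, an oligodendrocyte marker covariate and the omission of each mouse.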

Additional observations from a re-analysis of the deposited data

Results flagged for a closer look

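In 116 groups of 8 mice, over 58 quantities, a mouse was counted as standing apart when its gap to the next mouse, divided by the range of the group, exceeded the 95% critical value of Dixon's test, which chance gives in about 1 group in 20. This held for 9 values. MCU-KO mouse 8 had 14129527 total counts, where the other MCU-KO mice had 19897268 to 20582204. Control mouse 5 stood above the other control mice in Tuba1c, with 29.6 normalized counts against 1.03 to 11.2, with 0.0578% of alpha-tubulin against at most 0.0253%, and with 0.464% of the sum of Tuba1b and Tuba1c against at most 0.202%. The same mouse had 153 normalized counts of Tagap, where the other controls had at most 35.9. Control mouse 4 had 45.3 normalized counts of H2-Q5, where the others had at most 0.924. MCU-KO mouse 6 had 482 normalized counts of Gstcd against 127 to 177, MCU-KO mouse 3 had 445 of Agbl4 against 84.0 to 229, and MCU-KO mouse 4 had 8262 of Cct7 against 10538 to 12572.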

How the results depend on the processing

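The 22 genes past the threshold became 90 with DESeq2 and 14 with the mouse number as a replicate block, numbers that did not pair the mice (0 of 8 same-numbered pairs over a correlation of 0.1, and 0 of 8 mice closest to their own number), and 18 (without MCU-KO mouse 3) to 24 (without MCU-KO mouse 2) when each mouse was left out; the cause was not tested. Under the replicate block, Tuba1c had a log2 fold change of 7.76 and the lists again held 0 genes past the threshold, as they did under every alternative. Across 23 alternatives the log2 fold change of Tuba1c was 7.10 to 8.03 and past the threshold each time. With at least 10 counts in every mouse Tuba1c was not tested. Across 24 alternatives Tuba1a, Tuba1b, Tuba4a, Tubb2a, Tubb4a and Tubb5 stayed below 0, whereas Tubb2b (-0.07 to 0.12) and Tubb3 (-0.10 to 0.01) took either sign. The sum of Tuba1b and Tuba1c lay between -0.01 and 0.07, and that with Tuba1a between -0.18 and -0.11. Isotype share differences moved by less than the spread between mice. With stretches of 75 and 100 bases, the shared percentage was 70.4 and 65.8 in Tuba1a, 70.0 and 65.2 in Tuba1b, and 48.9 and 46.0 in Tuba1c, since fewer long stretches are free of a difference. A window of 5 Mb around Tuba1c held 105 tested genes and 0 past the threshold (edgeR, 9 at an unadjusted p under 0.05, where 4.41% of all tested genes were). With a prior count of 0.5, 4 of the 5 genes most like Tuba1c were named again, and Insl6 replaced Eno1b. Control counts of Tuba1c near the floor limit how closely its fold change can be given.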
